A study of Mus musculus with 57 samples.

Results

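Trachea and lung both bud from the ventral foregut endoderm, and by E15.5 they have become very different organs of one airway. The comparison described here set the transcriptome of wild-type (wt) trachea against that of wt lung in mouse embryos at embryonic stage E15.5, with 4 libraries of polyA-selected RNA from each tissue, which makes 8 of the 57 libraries of the series. The embryos were of the 129/Sv background and carried no mutation. A second set, of 4 trachea and 4 lung libraries from *Hoxa5*-/- embryos of the same age and background, was used to ask whether the same genes differed in embryos that share no sample with the first. These embryos lacked HOXA5 function in all their cells, since the null allele has a cassette inserted into the homeobox. The labels name the tissue but not what was trimmed from it, and whole organs were sequenced, so that each value is a mean over epithelium, mesenchyme, cartilage, vessels, nerves and blood.

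In all, 19340 of 56860 genes reached a mean of 1 TPM (transcripts per 1e6, a level corrected for gene length and depth) in either tissue and were tested. A gene near silent in one tissue could thus enter the test only through its level in the other. A gene was called when the Benjamini-Hochberg adjusted p of edgeR's quasi-likelihood test was below 0.05 and the difference was at least 1.5-fold. All log2 fold changes are of trachea over lung, so a negative value means a higher level in lung. They are given with their standard error (SE).

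At E15.5 the trachea forms its cartilage rings and a pseudostratified lining of basal, secretory and ciliated cells, with smooth muscle along its dorsal side. The lung is still branching: distal tips filled with progenitors of the alveolar lineage grow under the control of FGF10 from the mesenchyme, and a dense capillary bed forms around them. NKX2-1 is the transcription factor that sets the respiratory fate in both organs, while SOX2 marks the proximal and SOX9 the distal part of the airway tree.

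The tissues differed in 5838 genes, 30.2% of those tested, and 3886 of these genes (20.1%) were higher in trachea against 1952 (10.1%) in lung. The imbalance widened with the size of the difference. At 2-fold or more, 2926 genes were higher in trachea and 966 in lung. At 8-fold or more the numbers were 962 and 121. By level alone, 253 genes had a mean of 1 TPM or more in trachea and less than 0.1 in lung, and 46 had the reverse. The libraries of the tissues did not overlap for 5204 of the called genes and for 45.0% of all genes tested. Among 14754 protein-coding genes, 3130 were higher in trachea and 1576 in lung, and among 2329 long non-coding RNA genes, 552 and 207.

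Total counts ran from 23097464 to 39742853 in trachea and from 29702712 to 45528006 in lung. Libraries of one tissue correlated at Pearson's r between 0.970 and 0.987 (trachea) and between 0.982 and 0.994 (lung) in log2 CPM over the genes tested, and libraries of different tissues between 0.913 and 0.936. As to the labelled tissues, cartilage matrix genes were high in all trachea libraries and surfactant genes in all lung libraries. Lung replicate 3 correlated with the other lung libraries at r of 0.9823 to 0.9895, against 0.9904 to 0.9940 among those. In trachea, replicates 3 and 1 stood apart. Trachea replicate 3 was high in thyroid and parathyroid RNA: thyroglobulin (*Tg*) was at 350 TPM there and between 1.42 and 2.22 TPM in the other trachea libraries, and parathyroid hormone (*Pth*) was at 63.3 TPM there and at 0 in the other 7 libraries. It also had more RNA of surfactant genes than the other trachea libraries. In trachea replicate 1, 120 of 8392 protein-coding genes of at least 20 TPM were below 0.6 of the lowest of the other trachea libraries, and all 119 of them with a reference transcript had a GC content below the median of those 8392 genes (median 40.6% against 49.98%). These 119 transcripts were also longer, at a median of 7170 bases against 4396. The same count was 0 to 74 genes in the other 7 libraries. Where there were any, their median GC content was 49.4% to 52.9% and their median length 2089 to 4223 bases.

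**Figure D1:**
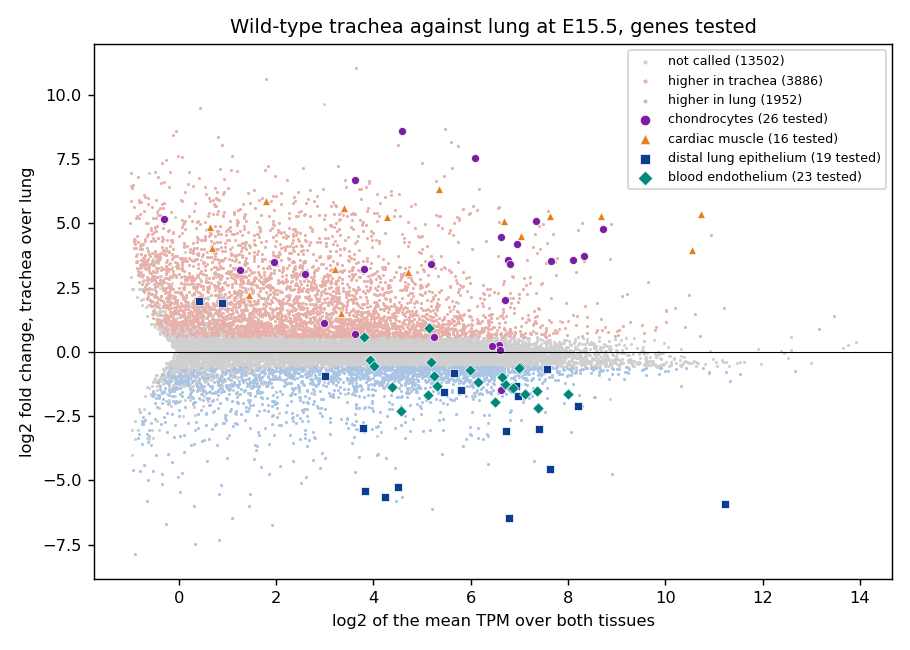
Each point is 1 of 19340 genes, with the log2 of the mean TPM over both tissues on the x axis and the log2 fold change of trachea over lung on the y axis. Genes called higher in trachea (3886, pale red) reach further from 0 than those called higher in lung (1952, pale blue), and chondrocyte (purple circles) and cardiac muscle genes (orange triangles) lie high while distal epithelial genes (blue squares) and blood endothelial genes (green diamonds) lie low.

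The genes that set lung apart most were those of the distal epithelium. The gene *Cldn18* encodes a claudin of alveolar tight junctions, and it was at 190, 236, 282 and 170 TPM in lung replicates 1 to 4 and at 0.962, 0.164, 7.89 and 0.188 TPM in trachea. Trachea replicate 3 was the highest trachea library, still far below every lung library. The log2 fold change was -6.47 (SE 0.93, adjusted p = 0.000412), which became -9.02 without trachea replicate 3. *Sftpc* (chr14:70758389-70761521, build GRCm39) encodes a surfactant protein of distal progenitors and type II cells. It was the most abundant gene called higher in lung among those whose libraries did not overlap between tissues. Its 4 lung libraries were at 3669, 5087, 7607 and 2443 TPM and its trachea libraries at 19.98, 2.47, 288 and 3.24 TPM. No trachea library reached the lowest lung library, and the log2 fold change of -5.91 (SE 1.41, adjusted p = 0.00716) became -9.16 without trachea replicate 3. The surfactant gene *Sftpb* was at 382 ± 253 TPM in lung and 15.96 ± 24.5 TPM in trachea (mean ± SD, n = 4 each; log2 fold change -4.55, SE 1.003, adjusted p = 0.00481), and its log2 fold change was -6.67 without trachea replicate 3, which held it at 52.7 TPM. *Sftpa1*, *Slc34a2* (the phosphate transporter of type II cells) and *Lamp3* (a lamellar body protein) were likewise at less than 4 TPM in every trachea library, with log2 fold changes of -5.43, -5.28 and -5.66, which became -8.30, -9.33 and -9.25 without trachea replicate 3. Without lung replicate 3 those of *Slc34a2* and *Lamp3* were -3.98 and -5.03.

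Of 19 distal epithelial markers, all tested, 17 were higher in lung and 1 in trachea, with a median log2 fold change of -2.11, against 0.02 over all genes tested. The exception was *Aqp5*, a water channel that airway glands and type I cells also use, at 1.35 to 4.02 TPM in trachea and 0.448 to 1.24 TPM in lung (log2 fold change 1.88, SE 0.39, adjusted p = 0.00357). With the replicate number as a block, 2 members were called higher in trachea. *Etv5*, a transcription factor switched on by FGF signalling in the tips, was at 302 ± 32.7 TPM in lung and 38.2 ± 4.96 TPM in trachea, which made it 8.12-fold higher in lung (adjusted p = 3.27e-07). *Nkx2-1* was present in both organs, at 403 to 564 TPM in lung and 88.8 to 146 TPM in trachea (log2 fold change -2.11, SE 0.17, adjusted p = 1.38e-05). All lung libraries were above all trachea libraries. Since these are bulk samples, fewer cells of a type and less RNA per cell cannot be told apart in any of these values.

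The stretches that precede the starts of 3 of the genes named above and below are shown because these genes are among those of largest difference in each direction, and because NKX2-1 is known to act on surfactant promoters. Each holds the 250 bases before the RefSeq start (RefSeq table of build GRCm38.p6), placed by exact match on GRCm39: *Sftpb* at chr6:72281344-72281593 on the plus strand, *Cldn18* at chr9:99599321-99599570 on the minus strand and *Matn1* at chr4:130671446-130671695 on the plus strand. They are written 5′ to 3′ on the strand of the gene, and capitals mark CTCAAG or its reverse complement CTTGAG, the core letters of sites bound by NKX2 factors.
Sftpb: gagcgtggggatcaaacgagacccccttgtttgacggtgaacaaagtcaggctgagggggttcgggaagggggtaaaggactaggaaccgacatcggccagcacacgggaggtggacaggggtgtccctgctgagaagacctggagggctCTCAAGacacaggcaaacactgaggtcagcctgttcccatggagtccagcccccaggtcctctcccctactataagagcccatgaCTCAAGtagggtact
Cldn18: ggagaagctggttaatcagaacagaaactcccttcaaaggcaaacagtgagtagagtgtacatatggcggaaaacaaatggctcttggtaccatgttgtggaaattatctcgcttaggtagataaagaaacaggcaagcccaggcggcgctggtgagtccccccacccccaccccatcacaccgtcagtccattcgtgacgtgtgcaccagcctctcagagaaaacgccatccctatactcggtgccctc
Matn1: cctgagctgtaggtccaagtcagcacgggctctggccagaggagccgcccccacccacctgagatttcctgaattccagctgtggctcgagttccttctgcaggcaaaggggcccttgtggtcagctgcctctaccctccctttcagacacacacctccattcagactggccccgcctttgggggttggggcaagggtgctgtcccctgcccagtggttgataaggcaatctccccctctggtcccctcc
The *Sftpb* stretch holds the letters 2 times, beginning 100 and 15 bases before the start, while the other stretches do not hold them. Over the 12473 tested genes with an entry in the table, 12.52% of the stretches hold the letters on either strand, against 13.18% of the 1282 genes called higher in lung and 12.32% of the 2548 called higher in trachea. A match of these letters is a description of sequence and not of binding.

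Other genes of large difference in lung came from outside the surfactant system. *Adh1*, an alcohol dehydrogenase that can oxidise retinol, was at 969, 1012, 891 and 818 TPM in lung and at 42.8, 23.1, 46.7 and 27.3 TPM in trachea. All lung libraries lay far above all trachea libraries, with a log2 fold change of -4.75 (SE 0.24, adjusted p = 1.2e-06). *Cym*, the milk-clotting protease chymosin, was at 75.8, 58.9, 8.89 and 30.3 TPM in lung and at no more than 1.08 TPM in trachea. *Tinag* and *Kif12*, a basement membrane antigen and a kinesin of epithelia, had log2 fold changes of -6.14 and -4.67, and *Fam162b* one of -4.52. The immune-linked *Retnla* and the EGF family ligand *Areg* followed with -5.10 and -4.53, on levels in lung of 1.94 to 33.3 TPM and 8.24 to 26.4 TPM, and the non-coding *Gm19990* with -5.65. Without trachea replicate 3 the log2 fold changes of *Tinag*, *Retnla*, *Areg* and *Gm19990* were -8.96, -6.75, -7.30 and -7.39, and without lung replicate 3 that of *Retnla* was -3.60. At the other end of the scale of abundance came *Ptma*, *Actb*, *Tubb5* and *Tmsb4x*, general genes of chromatin and cytoskeleton. Besides *Sftpc*, they had the highest levels among genes called higher in lung without overlap between the tissues. They differed with log2 fold changes of -1.14, -0.83, -0.77 and -0.65, the last of which was under 1.5-fold without lung replicate 3 (-0.49). *Ptma*, for example, was at 3373 to 3756 TPM in lung and 1474 to 1842 TPM in trachea.

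**Figure D2:**
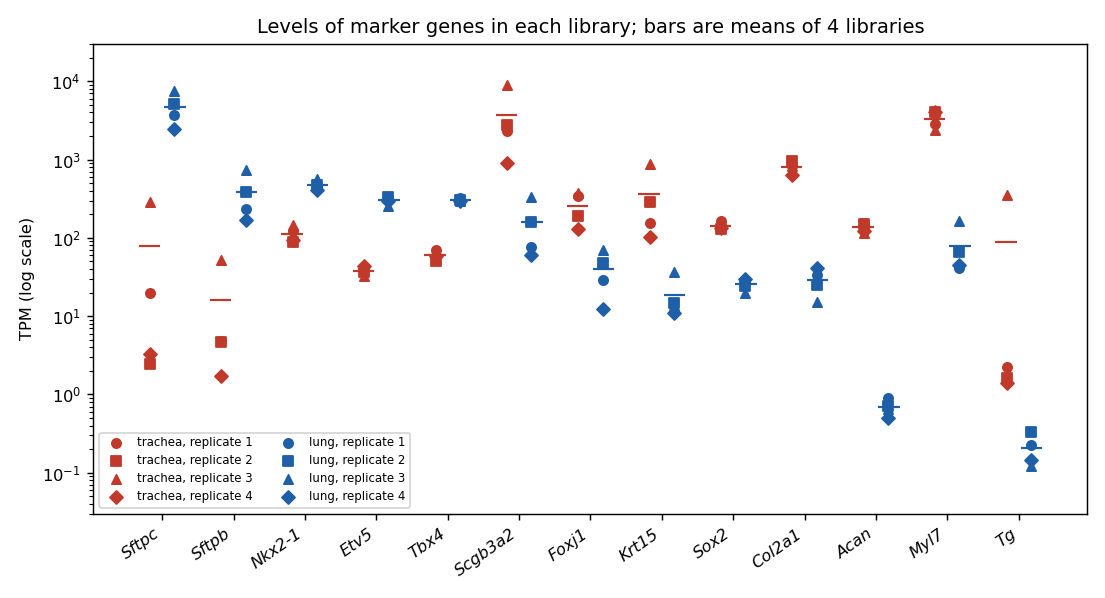
TPM (log scale) of 13 marker genes in each of the 4 trachea (red) and 4 lung (blue) libraries, with the marker shape giving the replicate number and the horizontal bars the means. Trachea replicate 3 (triangles) is the highest trachea library for *Sftpc* (288 TPM), *Sftpb* (52.7 TPM) and *Tg* (350 TPM), and the tissues overlap for none of the 13 genes.

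Cartilage set trachea apart. *Matn1*, a matrix protein of non-articular cartilage, was at 36.6, 80.7, 62.5 and 13.3 TPM in trachea and at 0.168, 0.188, 0.0597 and 0 TPM in lung. Every trachea library was far above every lung library, although replicate 4 was well below the other trachea libraries (log2 fold change 8.60, SE 0.77, adjusted p = 2.53e-05). Aggrecan (*Acan*, the main cartilage proteoglycan) was steadier, at 156, 149, 117 and 124 TPM in trachea and 0.502 to 0.913 TPM in lung (log2 fold change 7.55, SE 0.19, adjusted p = 5.56e-08). *Col2a1* (chr15:97873483-97902576), the fibrillar collagen of cartilage, was at 813 ± 135 TPM in trachea and 28.7 ± 11.1 TPM in lung, a 27.6-fold difference (adjusted p = 4.44e-06).

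Of 26 chondrocyte genes, all tested, 21 were higher in trachea and 1 in lung, with a median log2 fold change of 3.44. *Col9a1*, *Col9a2* and *Col9a3*, the chains of collagen IX, had log2 fold changes of 5.10, 3.74 and 3.55, and the secreted *Cytl1* one of 3.56. *Snorc* (a chondrocyte proteoglycan) and *Susd5* were among the genes of largest rise, at 6.69 and 6.84 (*Snorc* at 7.59 without lung replicate 1). The member higher in lung was *Pth1r*, the receptor for parathyroid hormone and its related peptide, at 117 to 161 TPM in lung and 51.6 to 54.1 TPM in trachea (log2 fold change -1.49). *Sox9*, which drives cartilage in the trachea and also marks distal epithelial tips, did not pass the test (log2 fold change 0.26, SE 0.14, adjusted p = 0.156), with 74.7 to 124 TPM in trachea and 80.5 to 94.6 TPM in lung. Of 10 tested genes of hypertrophic cartilage and bone, 5 were higher in trachea and 2 in lung. The latter were *Ibsp* and *Dmp1*, matrix proteins of mineralised tissue, at 4.88 to 10.6 TPM and 1.64 to 3.70 TPM in lung. Among 13 genes of perichondrium and tendon, 9 were higher in trachea, among them the small leucine-rich proteoglycans *Ogn* and *Dcn* (log2 fold changes 1.91 and 2.999), and 2 were higher in lung: *Fmod*, another proteoglycan of the same family, at 415 to 519 TPM against 32.5 to 86.3 TPM in trachea, and *Scx*, a tendon transcription factor, at 38.5 to 44.9 against 15.47 to 17.9 TPM.

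In every class of conducting airway genes examined, most tested members were higher in trachea. *Krt5*, the keratin that defines basal stem cells, was at 19.4, 57.8, 92.8 and 11.6 TPM in trachea and at 0 to 0.230 TPM in lung (log2 fold change 8.04, SE 0.90, adjusted p = 9.58e-05). *Sox2* was at 164, 128, 145 and 135 TPM in trachea and 27.9, 24.5, 20.03 and 29.7 TPM in lung (log2 fold change 2.45, SE 0.13, adjusted p = 1.59e-06). *Krt15*, *Krt17* and *Trim29*, which also belong to basal cells, had log2 fold changes of 4.25, 7.15 and 7.16. Without trachea replicate 3, *Krt5* had one of 7.44 and *Krt15* one of 3.29. Of 16 basal and proximal genes, 14 were higher in trachea and 1 in lung (median 2.79), and 2 were higher in lung without trachea replicate 3 or without lung replicate 1. The exception was *Snai2*, a repressor found in basal cells and in mesenchyme, at 229 to 320 TPM in lung and 45.1 to 71.3 TPM in trachea. The basal and proximal list summed to 882 to 2134 TPM in trachea and 569 to 609 TPM in lung. In the wt diaphragm libraries of the same age it summed to 338 to 888 TPM, so that it is not particular to the airway lining.

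Secretory genes were among the most abundant of trachea and the least even between its libraries. *Scgb3a2*, a secretoglobin of club cells, was at 2336, 2744, 8999 and 911 TPM in trachea and at 77.5, 161, 332 and 61.2 TPM in lung. Trachea replicate 3 was by far the highest and replicate 4 the lowest, and yet the lowest trachea library exceeded the highest lung library. The log2 fold change was 4.54 (SE 0.82, adjusted p = 0.00167), 3.64 without trachea replicate 3 and 5.19 without lung replicate 3. Of 16 secretory genes, 5 were below the TPM minimum, and of the 11 tested, 9 were higher in trachea and 0 in lung (median 4.71, and 3.64 without trachea replicate 3). These included *Cyp2f2* (the club cell cytochrome, log2 fold change 4.76), *Lypd2* (3.10), the antimicrobial lectin *Reg3g* (7.35) and the mucin *Muc5b* (6.64). Without trachea replicate 3 the last pair had log2 fold changes of 6.37 and 5.99, and *Reg3g* had one of 8.59 without lung replicate 3. *Sec14l3* did not pass (log2 fold change 1.66, SE 0.95, adjusted p = 0.176), and it did with the replicate number as a block (adjusted p = 0.00107) and without lung replicate 3 (adjusted p = 0.0341).

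Of 17 ciliated cell genes, all tested, 16 were higher in trachea and 0 in lung (median 2.55). *Foxj1*, the regulator of motile cilia, was at 340, 192, 375 and 129 TPM in trachea and 28.6, 47.2, 70.8 and 12.3 TPM in lung (log2 fold change 2.67, SE 0.53, adjusted p = 0.00264). In both organs replicate 3 was the highest and replicate 4 the lowest. *Deup1*, which builds the centrioles of multiciliated cells, had a log2 fold change of 2.67 and *Rsph1*, of the radial spokes, one of 2.86, which were 3.30 and 3.68 without lung replicate 3. Without trachea replicate 3, *Rsph1* had one of 2.19. In the *Hoxa5*-/- libraries, 5 of these 17 genes were called (27.1% of all genes tested in that contrast), and whether the genotypes differed was not tested here. Of 12 tested neuroendocrine genes 9 were higher in trachea, and 9 also without trachea replicate 3. *Chga*, as an example, was at 28.8 TPM in trachea replicate 3 and 5.34 to 6.33 TPM in the other trachea libraries, against 0.376 to 0.737 TPM in lung. The part of thyroid and parathyroid RNA in the value of replicate 3 was not tested. Several genes of that list are also used by neurons, which trachea held in larger amount, as given below.

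Keratins and claudins, which build the filaments and tight junctions of epithelia, differed in their counts. Of 17 tested keratin genes, 12 were higher in trachea, and the 1 higher in lung was *Krt23* (5.04 to 9.54 against 0.214 to 3.94 TPM). *Krt75* had no count in any lung library, and its 116 to 255 counts in trachea put it at least 69.5-fold higher there, taking 3 counts per library as the floor. Claudins were split, with 4 of 15 higher in trachea and 3 in lung, against 20.1% and 10.1% of all genes tested. *Cldn6*, a claudin of embryonic epithelia, was at 360 to 405 TPM in lung and 69.4 to 140 TPM in trachea, *Cldn11* at 5.11 to 7.40 and 58.1 to 103 TPM. Without trachea replicate 3, 5 claudins were called higher in lung. *Cldn3* was not called (log2 fold change -0.59, adjusted p = 0.0594), and it was with the block (adjusted p = 0.00288) and without trachea replicate 3 (adjusted p = 0.0109).

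**Figure D3:**
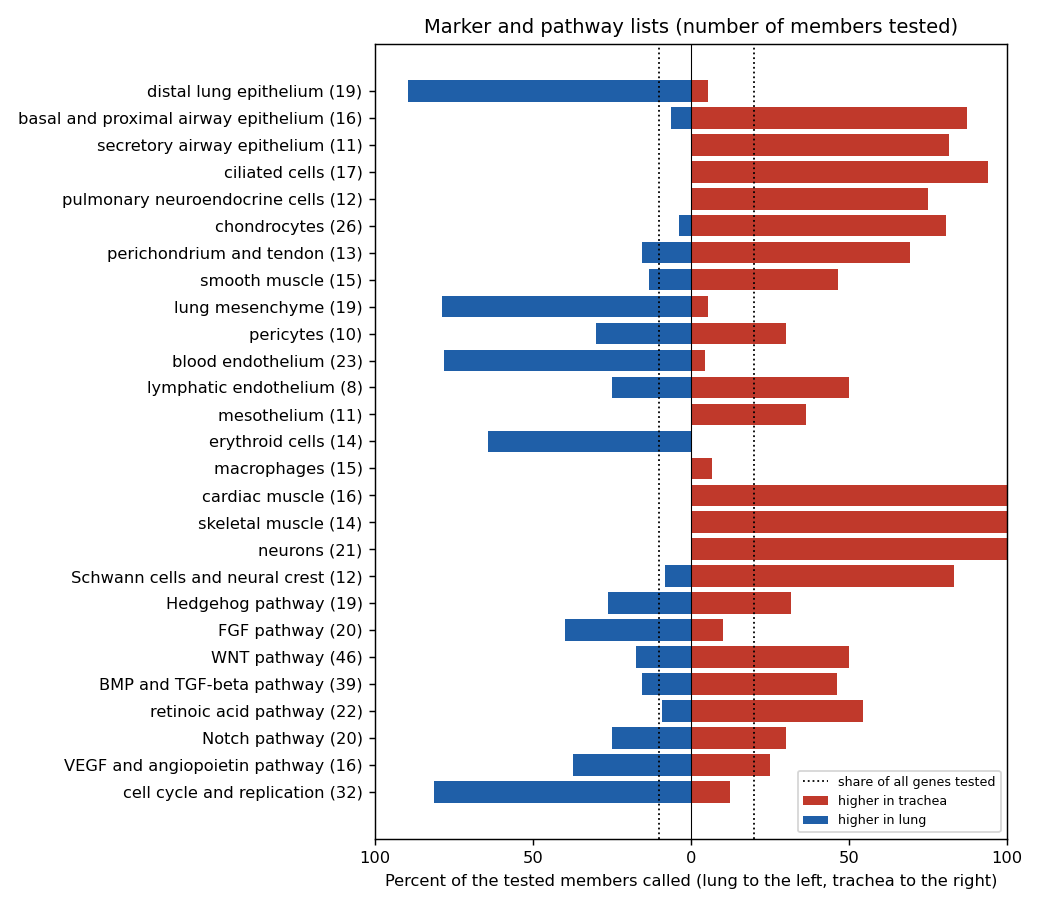
For each of the cell type and pathway lists drawn, the bars give the percent of its tested members (number in parentheses) called higher in trachea (red, to the right) or in lung (blue, to the left). Dotted lines mark the shares over all genes tested, 20.1% and 10.1%. Distal epithelium, lung mesenchyme, blood endothelium and cell cycle reach furthest to the left among these lists, and all tested members of the cardiac muscle, skeletal muscle and neuron lists lie to the right. Members near silent in one tissue could be tested only through their level in the other.

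The mesenchyme differed in its regulators. *Tbx4*, a T-box factor of lung and tracheal mesenchyme that works with *Tbx5* upstream of *Fgf10*, was at 321, 306, 298 and 299 TPM in lung and 70.0, 50.3, 65.9 and 58.6 TPM in trachea (log2 fold change -2.36, SE 0.10, adjusted p = 4.7e-07). The lung libraries lay close to each other and no trachea library came near them. *Tbx5* differed less, at 112 to 137 TPM in lung and 55.5 to 89.3 TPM in trachea (log2 fold change -0.68, SE 0.15, adjusted p = 0.00422), and it was under 1.5-fold without trachea replicate 3 (-0.53), the trachea library of lowest *Tbx5*. *Tbx2* had a log2 fold change of -1.77. Of 19 genes of lung mesenchyme, 15 were higher in lung and 1 in trachea (median -1.33). *Tcf21*, *Foxf1* and *Fgf10* were among the former, with log2 fold changes of -1.72, -1.81 and -1.30, and *Fgf10* stood at 37.3 to 49.6 TPM in lung and 15.2 to 20.2 TPM in trachea. The member higher in trachea was *Pdgfra*, the receptor of fibroblast progenitors, at 140 to 177 against 70.4 to 89.5 TPM. In smooth muscle, by contrast, the contractile genes of highest level did not pass the test: *Acta2* had a log2 fold change of 0.20 (SE 0.16, adjusted p = 0.342), *Actg2* one of 0.56 and *Myh11* one of 0.48. Without trachea replicate 4, *Myh11* was called (0.63, adjusted p = 0.0309). Of 15 smooth muscle genes 7 were higher in trachea, with *Des* (log2 fold change 1.75) also a gene of striated muscle, and *Mylk* and *Synm* were higher in lung (-0.94 and -2.24).

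Vessels were a lung feature. *Cdh5*, the cadherin of endothelial junctions, was at 376, 393, 417 and 347 TPM in lung and 137, 130, 128 and 108 TPM in trachea (log2 fold change -1.64, SE 0.09, adjusted p = 1.59e-06). The summed level of 24 blood endothelial markers was 2481 to 2916 TPM in lung and 1056 to 1191 TPM in trachea. Of 23 tested, 18 were higher in lung and 1 in trachea (2 without lung replicate 3). That one was *Gja5*, a connexin of arterial endothelium that atrial muscle also uses (35.3 to 52.6 against 20.4 to 27.2 TPM). *Aplnr*, *Plvap* and *Cldn5* had log2 fold changes of -2.17, -1.54 and -1.65. Lymphatic markers did not follow: 4 of 8 were higher in trachea, among them the chemokine *Ccl21a* (123 to 259 against 22.6 to 28.1 TPM), 2 were higher in lung (*Mmrn1* and *Stab2*), and *Lyve1* did not pass (log2 fold change -0.21, SE 0.22). In the VEGF and angiopoietin pathway, the receptor *Kdr* and the ligand *Vegfd* were higher in lung (-1.18 and -1.51), *Angpt2* was higher in trachea (2.99), and *Vegfa* did not pass (-0.39, adjusted p = 0.122). Of 15 macrophage genes 1 was called, higher in trachea, and it was not called without trachea replicate 3 or without lung replicate 3. Without trachea replicate 3 or lung replicate 4, 1 was called higher in lung. Of 14 erythroid genes 9 were higher in lung. The replicate block gave 13, and leaving out lung replicate 4 or trachea replicate 2 gave 4 and 5. The adult beta globin *Hbb-bs* stood at 6430 to 10952 TPM there and 3589 to 7809 TPM in trachea, with overlap (log2 fold change -0.75, adjusted p = 0.0437). That call was lost when any 1 library other than trachea replicate 3 was left out. The adult alpha globin genes *Hba-a1* and *Hba-a2* are near copies, so that reads may have been split between them.

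Genes of the cell cycle were higher in lung. Of 32, all tested, 26 were higher in lung and 4 in trachea (median -0.81). *Top2a* was at 319, 329, 303 and 353 TPM in lung and 170, 160, 170 and 205 TPM in trachea (log2 fold change -0.92, SE 0.09, adjusted p = 3.79e-05), and the helicase subunit *Mcm4* had a log2 fold change of -1.09. The call of *Mki67* rested on few libraries. It was at 373 to 399 TPM in lung and 191 to 239 TPM in trachea replicates 2 to 4, but at 37.9 TPM in trachea replicate 1, where it was one of the 120 genes of low level (log2 fold change -1.25, adjusted p = 0.0406; -0.92 without replicate 1), and the call was lost when any 1 lung library or trachea replicate 2 or 3 was left out. The 4 genes higher in trachea were *Cdkn1c* and *Cdkn1a*, inhibitors of the cycle, and the cyclins *Ccnd2* and *Ccnd3*. *Cdkn1c* was at 827 to 892 TPM in trachea and 355 to 406 TPM in lung (log2 fold change 1.16, SE 0.06, adjusted p = 1.31e-06).

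Signalling genes are described by pathway and role. Over all genes tested, 20.1% were higher in trachea and 10.1% in lung, and the counts below stand beside these shares. In Hedgehog signalling, which runs from the epithelial ligand to the mesenchyme, *Shh* was at 75.4 to 98.1 TPM in lung and 24.6 to 36.0 TPM in trachea. Its receptor and target *Ptch1* had a log2 fold change of -1.64, close to that of the ligand (-1.47). The transcription factor *Foxf2*, a target in mesenchyme, had -3.36. The co-receptors went the other way, *Boc* with 1.12 and *Gas1* with 2.21, and the transducer *Smo* did not pass (-0.21, adjusted p = 0.0945). In all, 6 of 19 were higher in trachea and 5 in lung.

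In the FGF pathway, 8 of 20 tested genes were higher in lung and 2 in trachea. The ligand *Fgf10* and the receptor *Fgfr4* (log2 fold change -2.91) were on the lung side, *Fgfr1* was on the trachea side (106 to 127 against 46.9 to 52.6 TPM), and so was *Fgfbp1* (1.15, adjusted p = 0.0287), which was not called without trachea replicate 3 (adjusted p = 0.0558) or without lung replicate 1, 2 or 4. In the WNT pathway, 23 of 46 tested genes were higher in trachea and 8 in lung. Secreted inhibitors were on the trachea side: *Wif1* was at 254, 212, 203 and 266 TPM in trachea and 11.6, 11.9, 16.7 and 9.81 TPM in lung (log2 fold change 4.19, SE 0.17, adjusted p = 4.53e-07), and *Sfrp1* and *Sfrp2* had log2 fold changes of 2.74 and 2.28. The ligand *Wnt2*, made by lung mesenchyme, was at 101 to 113 TPM in lung and 7.72 to 13.9 TPM in trachea. *Axin2*, *Lef1* and *Tcf7*, general targets or effectors of the pathway, were also higher in lung (-1.33, -1.63 and -2.97), as were the receptor *Fzd7* (-0.84) and the ligand *Wnt7a* (-5.55, and -8.12 without trachea replicate 3, where its level was 0.329 TPM).

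In BMP and TGF-beta signalling, 18 of 39 tested genes were higher in trachea and 6 in lung. The 6 included the ligands *Bmp4*, *Bmp5*, *Tgfb1* and *Tgfb2*, at log2 fold changes of -0.95, -1.10, -0.95 and -1.38, and the secreted target *Tgfbi* (-1.78), whereas the ligand *Gdf10* was at 181 to 286 TPM in trachea and 10.4 to 13.1 TPM in lung (4.32). In the retinoic acid pathway, 12 of 22 tested genes were higher in trachea. *Crabp1*, which binds retinoic acid in the cytoplasm, was at 345, 286, 224 and 378 TPM in trachea and 15.48 to 23.6 TPM in lung, and *Aldh1a1*, which makes it, had a log2 fold change of 2.27. The 2 genes higher in lung were *Adh1*, already given, and *Lrat*, which stores retinol as ester (-2.03). Notch genes were divided, with 6 of 20 higher in trachea and 5 in lung.

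The extracellular matrix differed by type. Of 42 tested collagen genes, 25 were higher in trachea and 8 in lung. *Col1a1* was at 3431 to 4230 TPM in trachea and 1013 to 1196 TPM in lung (log2 fold change 1.70, SE 0.10, adjusted p = 2.22e-06). Of 36 tested genes of elastic fibres and basement membrane, 12 were higher in trachea and 9 in lung. Among the latter, *Col4a3* and *Col4a4*, chains of the collagen IV of mature lung and kidney basement membranes, had log2 fold changes of -3.54 and -3.97 (*Col4a4* -4.61 without trachea replicate 3), *Col4a1* had -0.88, and the laminin chain *Lama1* had -2.49. Of the elastic fibre genes, *Eln* and *Mfap2* were higher in trachea (1.60 and 0.95) and *Mfap4* did not pass (-0.43, adjusted p = 0.112). The non-coding *H19*, an imprinted growth-linked transcript, was the most abundant gene called higher in trachea without overlap between the tissues. It was at 18271, 16188, 14864 and 16407 TPM there and 5330, 5682, 7871 and 5517 TPM in lung (log2 fold change 1.39, SE 0.14).

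The *Hox* genes encode position along the body axis. In the HoxA and HoxB clusters their difference between trachea and lung varied with their place in the cluster. Of 39, 18 reached 1 TPM in either tissue. Within the HoxA cluster, *Hoxa2*, *Hoxa3* and *Hoxa4* were higher in trachea, and *Hoxa5*, *Hoxa6* and *Hoxa7* were higher in lung. *Hoxa3* was at 105, 108, 91.01 and 119 TPM in trachea and 49.9, 42.6, 42.0 and 45.2 TPM in lung (log2 fold change 1.198, SE 0.09, adjusted p = 1.14e-05). *Hoxa2* and *Hoxa4* had log2 fold changes of 0.92 and 0.80. *Hoxa5* (chr6:52178734-52181567) was at 103, 94.8, 76.3 and 108.9 TPM in trachea and 171, 156, 144 and 170 TPM in lung (-0.78, SE 0.11, adjusted p = 0.000393). *Hoxa6* was at 0.418 to 1.34 TPM in trachea and 13.4 to 15.8 TPM in lung (-3.92, SE 0.29), and *Hoxa7* at 0.167 to 0.457 and 5.66 to 6.66 TPM (-4.49, SE 0.27). Both were close to absent in trachea, where *Hoxa5* was the last gene of the cluster at an appreciable level.

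In the HoxB cluster the called genes were *Hoxb5* to *Hoxb8*, all higher in lung, and none was higher in trachea. *Hoxb2*, *Hoxb3* and *Hoxb4* were not called, with log2 fold changes of -0.69, -0.40 and -0.43 (the last with an adjusted p of 0.0387 but under 1.5-fold). *Hoxb2* was called with the replicate number as a block (adjusted p = 0.0049), without trachea replicate 1 (adjusted p = 0.0485) and without lung replicate 3 (adjusted p = 0.00917). *Hoxb5* was at 20.1, 8.09, 11.2 and 12.2 TPM in trachea and 138, 113, 73.5 and 131 TPM in lung (-3.19, SE 0.30, adjusted p = 3.01e-05). *Hoxb6*, *Hoxb7* and *Hoxb8* had log2 fold changes of -4.15, -3.19 and -4.87, and *Hoxb8* was at 9.88 to 13.7 TPM in lung and 0.174 to 0.6003 TPM in trachea. Summed over the cluster, HoxB reached 258 ± 55.4 TPM in lung and 80.3 ± 12.4 TPM in trachea, while HoxA reached 278 ± 25.9 and 300 ± 40.9 TPM. The few HoxC and HoxD genes over 1 TPM, *Hoxc4*, *Hoxc5*, *Hoxd8* and *Hoxd9*, were higher in trachea (2.48, 1.96, 2.32 and 2.46), at no more than 14.9 TPM. The first 3 were higher still in the diaphragm libraries of the same age, a skeletal muscle, where *Hoxc4* was at 41.1 to 51.2 TPM, and trachea held skeletal muscle RNA, as given below, whose part in these values was not tested. Antisense transcripts lie within these clusters, and the sources used here do not state whether reads were counted by strand.

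**Figure D4:**
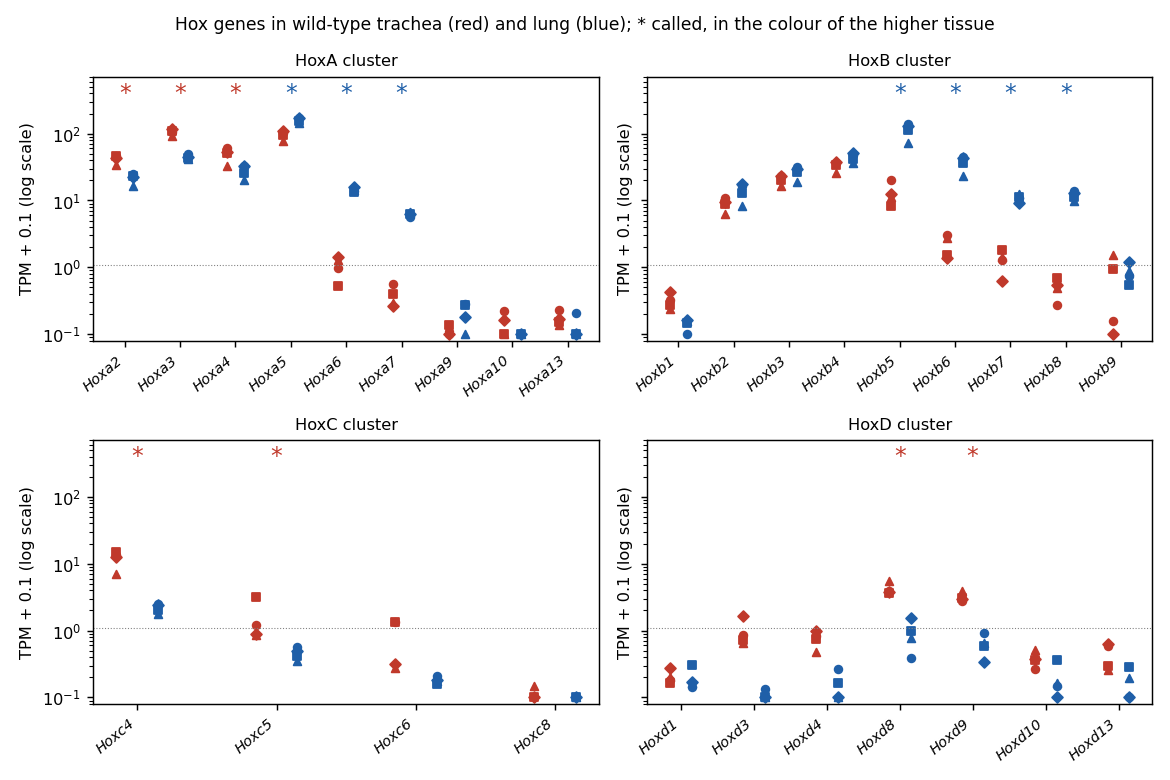
TPM plus 0.1 (log scale) of *Hox* genes with a count, by cluster and in order of number, in each of the 4 trachea (red) and 4 lung (blue) libraries, with replicates 1 to 4 as circle, square, triangle and diamond. The dotted line marks 1 TPM, and the asterisks turn from red to blue between *Hoxa4* and *Hoxa5* in HoxA and are blue from *Hoxb5* to *Hoxb8* in HoxB.

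Of 9 genes for TALE homeodomain proteins, which bind DNA beside HOX proteins, 2 were called (22.2%, against 30.2% of all genes tested). Both were higher in trachea, *Pbx3* (46.2 to 65.2 against 34.9 to 36.9 TPM) and *Pbx4* (10.3 to 29.04 against 3.97 to 7.81 TPM). The log2 fold change of *Pbx3* (0.62) was under 1.5-fold without trachea replicate 1 (0.56) and without trachea replicate 4 (0.54). *Pbx2* and *Meis1* were not called and had log2 fold changes of -0.15 and 0.41. All 4 tested genes of the Iroquois family were higher in lung: *Irx1* was at 135 to 147 TPM there and 18.498 to 23.7 TPM in trachea, and *Irx2*, *Irx3* and *Irx5* had log2 fold changes of -1.47, -2.47 and -2.004. In the Sox family, *Sox2*, *Sox21* and the chondrogenic partners *Sox5* and *Sox6* were among 8 genes higher in trachea (*Sox21* 4.31, *Sox5* 1.11, *Sox6* 0.69), and the endothelial *Sox7*, *Sox17* and *Sox18* were among 6 higher in lung (-1.38, -2.30 and -0.998). Among T-box genes, *Tbx1*, *Tbx18* and *Tbx20* were higher in trachea (1.06, 3.93 and 5.03), and the last is a cardiac factor.

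*Akr1c18*, a steroid-metabolising reductase, was the gene of largest fitted difference by the naming rule. It had 79 to 567 counts in the trachea libraries and none in lung, which put it at least 92.0-fold higher in trachea with a floor of 3 counts per library. *C1qtnf3*, a secreted protein of cartilage and its surroundings, was nearly even between libraries of a tissue, at 104, 104, 80.9 and 95.4 TPM in trachea and 0.304 to 0.331 TPM in lung (log2 fold change 8.15, SE 0.14, adjusted p = 8.62e-09). The transcription factors *Sim2* and *Otx1* were at 77.7 to 130 TPM and 19.95 to 24.3 TPM in trachea and below 0.6 TPM in lung, and the acetylcholine transporter *Slc18a3* at 8.82 to 25.7 TPM and below 0.2 TPM.

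Trachea also held RNA of neighbouring or associated tissues. All 16 cardiac muscle genes were higher in trachea, with a summed level of 5651 to 10648 TPM against 247 to 504 TPM in lung. The same list summed to 10736 to 16705 TPM in the wt diaphragm libraries, so that it is not particular to heart. The part of skeletal muscle RNA in the trachea sum was not tested. *Myl7* (chr11:5846637-5848782), the myosin light chain of atrial muscle, was at 2883, 4001, 2377 and 4009 TPM in trachea and 41.6, 65.4, 162 and 45.2 TPM in lung (log2 fold change 5.37, SE 0.48, adjusted p = 2.48e-05). *Myl2*, its ventricular counterpart, was at 2.97 to 10.4 TPM in trachea. *Actc1*, *Myh6* and *Myl4* had log2 fold changes of 3.98, 5.27 and 5.27, and the cardiac transcription factor *Nkx2-5* one of 5.23. Without lung replicate 3, *Myl7* and *Myh6* had log2 fold changes of 5.99 and 5.86. All 14 tested skeletal muscle genes of 20 were higher in trachea as well, and the 6 others were below the TPM minimum. Members near silent in lung could be tested only through their level in trachea, so that this count is in part set by the filter. The list summed to 28.4 to 56.9 TPM in lung and 462 to 1704 TPM in trachea. The latter was 2.42% of the sum in the diaphragm libraries on average. *Acta1* and *Mylpf* were highest in trachea replicate 1 (357 and 537 TPM). All 21 neuronal genes were higher in trachea, *Prph*, a filament of peripheral neurons, at 170, 103, 82.6 and 162 TPM against 2.02 to 2.95 TPM. Of 12 Schwann cell and neural crest genes 10 were higher in trachea, with *Sox10* at 27.5 to 36.7 against 1.08 to 1.96 TPM. The exception was the endothelin receptor *Ednrb* (89.9 to 112 against 129 to 199 TPM), which was under 1.5-fold without lung replicate 3 (-0.48) and without trachea replicate 4 (-0.58). *Barx1*, a factor of stomach and oesophageal mesenchyme, was at 49.8 to 62.8 against 0.602 to 1.37 TPM, 1 of 7 of 9 tested oesophageal and squamous genes that were higher in trachea. That list summed to 102 to 113 TPM in trachea and 35.6 to 171 TPM in the wt diaphragm libraries, so that it is not particular to oesophagus. Of 11 mesothelial genes 4 were higher in trachea (36.4%, against 20.1% of all genes tested) and 7 were not called. Among the 4 were *Msln* at 37.2 to 148 against 3.29 to 24.2 TPM and *Krt19*, which airway epithelium also uses, at 561 to 1691 against 146 to 334 TPM. Without trachea replicate 2, 2 members were called higher in lung. In *Hoxa5*-/-, 4 were higher in trachea and 3 in lung.

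Thyroid genes rested on trachea replicate 3. Of 9 tested, 6 were higher in trachea and 1 in lung, and without that library 4 were tested and 2 were higher in trachea. Leaving out 1 lung library left 1 to 3 higher in trachea. *Tg* had a log2 fold change of 8.66 (SE 2.33, adjusted p = 0.0128) and of 3.03 without that library, while DESeq2 gave it no adjusted p. *Foxe1* and *Pax8* were below the TPM minimum once it was left out, and *Pth*, of the parathyroid, did not pass the test with it (adjusted p = 0.0811; 0.00121 with the replicate block).

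**Figure D5:**
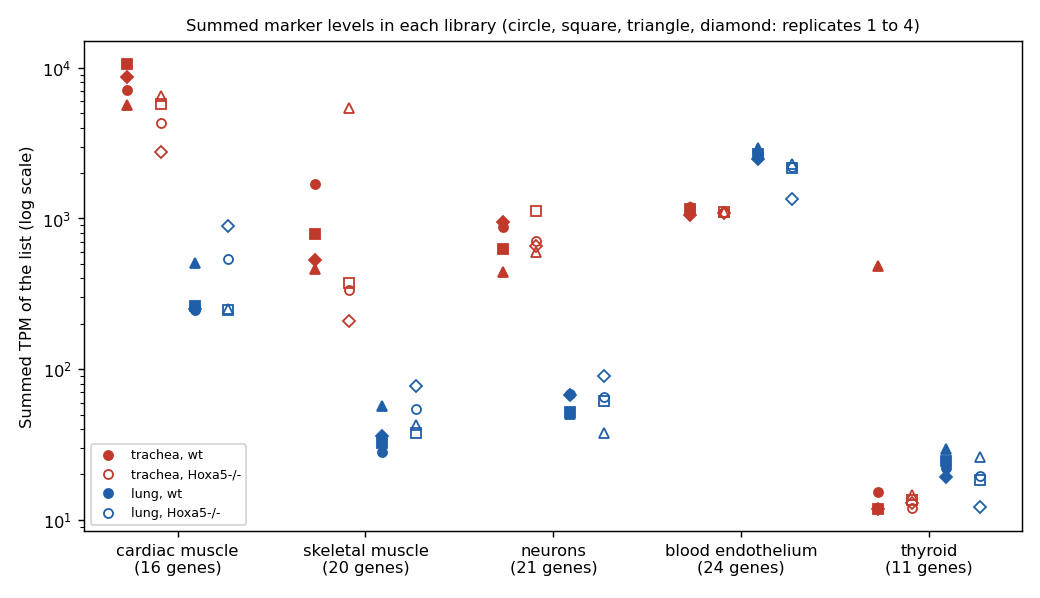
Summed TPM (log scale) of 5 marker lists in each library of trachea (red) and lung (blue), filled for wt and open for *Hoxa5*-/-. The sum of the cardiac muscle list was higher in all trachea than in all lung libraries of both genotypes, and the thyroid sum of 485 TPM was seen in wt trachea replicate 3 and in no other library.

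The same contrast in *Hoxa5*-/- embryos is given next. Their libraries held *Hoxa5* at 20.9 to 37.7 TPM in trachea and 30.8 to 47.7 TPM in lung, against 76.3 to 108.9 and 144 to 171 TPM in wt. In this contrast 5205 of 19229 tested genes were called (27.1%), 3276 higher in trachea and 1929 in lung. *Hoxa5*-/- lung replicate 4, which was kept in the fit, stood apart. The sums of most lists were lower in it than in the other *Hoxa5*-/- lung libraries. Its blood endothelial markers summed to 1339 TPM, against 2151 to 2308 TPM in those, and its collagen genes to 4680 TPM, against 6862 to 7527 TPM. The cardiac muscle, skeletal muscle and neuron lists had their highest sums of these lung libraries there. In the paper's sequencing statistics *Hoxa5*-/- lung replicate 4 also had the lowest share of assigned alignments. Its part in the values below was not tested. Of 18662 genes tested in both genotypes, 4229 were called in the same direction in both, which is 76.1% of the 5560 called in wt and 84.4% of the 5011 called in *Hoxa5*-/-, and 0 were called in opposite directions. The share with the same sign was 99.2% of the genes called in wt and 87.5% of all genes tested in both. By list, in *Hoxa5*-/- embryos 15 of 18 tested distal epithelial genes, 22 of 26 chondrocyte genes, 18 of 23 blood endothelial genes and 28 of 32 cell cycle genes were called in either direction. Of the 14 erythroid genes 3 were called there, all higher in lung, against 9 in wt, and whether the genotypes differed was not tested. Among single genes, *Cldn18*, *Sftpc*, *Matn1* and *Acan* had log2 fold changes of -9.22, -10.23, 9.47 and 6.96, and the *Hox* genes *Hoxb5*, *Hoxb6* and *Hoxb8* of -2.85, -4.04 and -5.70. *Hoxa6*, next to the disrupted gene, had one of -1.15, against -3.92 in wt, and the difference between genotypes was not tested. The cardiac gene *Myl7* had one of 3.28, against 5.37 in wt, on 1210 to 2310 TPM in *Hoxa5*-/- trachea and 24.6 to 371 TPM in *Hoxa5*-/- lung. *Tg* was between 0.903 and 1.39 TPM in the *Hoxa5*-/- trachea libraries, far below the level of wt trachea replicate 3.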

How the data were processed

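RNA-seq was made from wt and *Hoxa5*-/- trachea and lung at E15.5, 4 biological replicates per group. Per the labels and methods, the authors trimmed single-end reads of 100 bases with Trim Galore 0.6.5, aligned them to GRCm39 with STAR 2.7.9a and counted them per gene with featureCounts 2.0.3, on an annotation curated for *Hox* genes. The counting strand is not given in the sources used here. The deposited tables hold raw counts, which were tested, and TPM, computed by the authors, which give levels. No column was left unmapped.

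Genes with a mean of at least 1 TPM in either tissue were tested with edgeR 4.0.16 (R 4.3.3; TMM scaling, quasi-likelihood test, two-sided, Benjamini-Hochberg adjustment over all genes tested). Called means an adjusted p below 0.05 and at least 1.5-fold. DESeq2 1.42.0 was an alternative, and the scripts were tested on simulated data. Each genotype was fitted alone. Total counts were 23097464 to 45528006 in the wt libraries, and floors of 3 counts cover counting error only.

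Same-numbered wt trachea and lung libraries deviated together from their group means (r from 0.14 to 0.49, from 0.08 to 0.47 without sex-linked genes), each matched best with its own number, and the sex of the embryos matched in 4 of 4 pairs. The numbers were therefore taken to pair the wt samples, from the data and not from the labels. In *Hoxa5*-/-, 3 of 4 pairs exceeded 0.1, and trachea replicate 4 matched lung replicate 2 better (r of 0.28) than its own number (0.08). The fit without a block is the main one, since the labels do not give the pairing, and the fit with the block is an alternative.

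Named genes are the 15 of largest change each way among called genes of at least 10 TPM whose libraries did not overlap between tissues, the 5 called genes of highest TPM each way under the same overlap rule, and, of each list, members of highest TPM and those against its direction, with all *Hox*, TALE, T-box and Sox genes open to naming. Single genes outside these were chosen after their values were seen. Members and lists were chosen with earlier results of these data known. The count of low genes in each library and the search for motif letters were chosen after the values were seen. Some genes are not reported here.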

Additional observations from a re-analysis of the deposited data

Results flagged for a closer look

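In 49 of 502 groups of 4 libraries 1 library lay far from the others by Dixon's test, where chance gives about 1 in 20, and 37 of these libraries carried the number 3 (24 of trachea, 13 of lung). All values are TPM, and a list is given by its sum. In trachea replicate 3, the high values were those of *Tg* (350), *Otx1* (24.3), *Cldn18* (7.89), *Tinag* (3.17), *Sftpc* (288), *Lamp3* (2.41), *Gm19990* (2.56), *Sftpa1* (2.03), *Slc34a2* (3.94), *Sftpb* (52.7), *Areg* (1.88), *Chga* (28.8), *Lyve1* (133), *Hhex* (12.1), *Pth* (63.3), *Foxe1* (14.5), *Wnt7a* (0.329), *Hoxd8* (5.48), *Pax8* (8.02), the distal lung epithelium list (1031), the thyroid list (485) and the thymus and parathyroid list (84.0). In lung replicate 4, the low values were those of *C1qtnf3* (0.304). In lung replicate 3, the high values were those of *Retnla* (33.3), *H19* (7871), *Krt15* (36.9), *Tppp3* (66.4), *Krt19* (334), *Msln* (24.2), *Myl2* (0.306), *Shh* (98.1), *Fgfr4* (141), *Eln* (767), the pericytes list (571) and the cardiac muscle list (504). In trachea replicate 2, the high values were those of *Col1a1* (4230), *Lrat* (2.84) and *Hoxc5* (3.08). In trachea replicate 4, the low values were those of *Cytl1* (391.8) and *Aplnr* (47.6). In trachea replicate 1, the high values were those of *Mylpf* (537). In lung replicate 2, the high values were those of *Aldh1a1* (28.9) and *Pax8* (0.0310). In lung replicate 3, the low values were those of *Mcm4* (226). In trachea replicate 3, the low values were those of *Meis3* (16.6) and *Tbx5* (55.5). In trachea replicate 1, the low values were those of *Mga* (26.7). In trachea replicate 2, the low values were those of the lymphatic endothelium list (292). In lung replicate 1, the high values were those of the hepatocytes list (49.0).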

How the results depend on the processing

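The count of 5838 genes in wt lay between 3892 and 6966 under DESeq2, other scalings, other filters on low values, sex as a covariate, a fit over all 32 libraries and a 2-fold minimum, with trachea above lung in each. A 2-fold minimum left 966 genes higher in lung, a minimum of 5 TPM left 2467 higher in trachea, and with no fold minimum 9584 genes were called, 4501 of them higher in lung. Genes near silent in one tissue depended on the limits: at 1 and 0.5, 5 and 0.5, and 10 and 1 TPM they numbered 1035, 144 and 136 for trachea and 199, 12 and 14 for lung. Leaving out 1 library gave 5243 to 5997 calls in wt (3460 to 3981 higher in trachea, 1743 to 2016 in lung) and 4688 to 5385 in *Hoxa5*-/- (2991 to 3482 and 1675 to 1918), and 4546 of the wt calls (77.9%) were made in all 8 such fits. With the replicate number as a block, 6053 genes were called in wt, of which 5726 were also called without it, and 5554 in *Hoxa5*-/-. Among the genes named in the report, the block changed no call other than those given there. *Mga*, not called (log2 fold change -0.10), changed sign without trachea replicate 1 (0.0665) and was at -0.19 without trachea replicate 4. Over 227 genes examined singly, 4182 of 4288 alternative values kept direction and call. The causes were not tested.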

Other observations

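The libraries numbered 3 shared a profile in both tissues. *Sftpc* and *Scgb3a2* were at their highest there, at 288 and 8999 TPM in trachea and 7607 and 332 TPM in lung. The embryonic globin genes *Hbb-y* and *Hba-x* were at their lowest there too, at 26.3 and 11.5 TPM in trachea and 97.3 and 37.4 TPM in lung. *Hbb-y* was called higher in lung with the replicate number as a block (log2 fold change -1.97, adjusted p = 1.79e-05 in edgeR's quasi-likelihood test) and not without it (-1.86, adjusted p = 0.138). Why these libraries differ was not tested.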
